A study of Mus musculus with 26 samples.

Results

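To describe what antibody blockade of PD1 did to gene expression in pancreatic tumors irrespective of diet, 13 tumors from anti-PD1-treated mice were compared with 13 tumors from untreated mice, which together are all 26 tumors of the series. Groups were taken from the sample titles, and diet entered the comparison as a covariate. All tumors were Panc02 tumors, grown from a murine pancreatic ductal adenocarcinoma (PDAC) cell line injected under the skin of the flank of male C57BL/6 mice, which were obtained at 6 to 8 weeks of age. The control diet was AIN-93G, and the HMB diet was the same diet with β-hydroxy-β-methylbutyrate, a metabolite of leucine, begun 1 week ahead of the injection. Control tumors (n = 6) and HMB tumors (n = 7) came from mice that were not given anti-PD1, and anti-PD1 tumors (n = 6) and anti-PD1 + HMB tumors (n = 7) from mice given 200 µg of the antibody every 3 days. Per the study's methods the untreated mice received an isotype control antibody, which the sample labels do not mention. Group sizes followed the sample titles, from which the overall design text differs. RNA of each whole tumor was measured on 1 Clariom S array, so every cell type of the excised tissue contributes, and fewer cells of a type cannot be told apart from less RNA per cell. Each mouse carried a graft of a single cell line under the skin and not a tumor of the pancreas.

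PD-1, encoded by Pdcd1, is an inhibitory receptor that T cells place on their surface after activation. Its ligands PD-L1 (Cd274) and PD-L2 (Pdcd1lg2) are carried by tumor cells and myeloid cells, and PD-L1 is itself induced by interferon-gamma. An antibody against PD-1 blocks this contact, and activated CD8+ T cells are known to release granzymes, perforin and interferon-gamma, the last of which raises antigen presentation and the chemokines Cxcl9 and Cxcl10 in the cells around them.

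The values are array intensities on a log scale taken as log2, where a difference of 1 is a 2-fold difference. Array medians lay between 6.97 and 7.11, and the 95th percentile of the negative-control probe sets lay between 10.9 and 11.3 with a median of 11.06, called the background below. Between 3772 and 4489 of the 19505 genes exceeded it per array, so that many immune genes were measured below it. The Panc02 keratins Krt8 and Krt18 had mean log2 values of 14.81 and 14.77 over all tumors, whereas the epithelial adhesion gene Epcam stood at 5.70. The pan-leukocyte gene Ptprc stood at 14.14 and the macrophage gene Adgre1 at 12.92. A few tumors stood apart in muscle genes or in B and plasma cell genes, and the cause was not tested. Skeletal muscle genes were high in HMB tumor 5 and in anti-PD1 + HMB tumors 4 and 6, and B and plasma cell genes were high in anti-PD1 + HMB tumor 7 and HMB tumor 2.

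T cell, cytotoxic and interferon-gamma-induced genes had median differences above 0 in anti-PD1-treated tumors on both diets, but no single gene passed the test across all genes. Nearly all members of these lists that passed an unadjusted p of 0.05 within a diet did so on the HMB diet. With limma and Benjamini-Hochberg adjustment over 19505 genes, 0 genes (0%) had an adjusted p under 0.05, and the smallest adjusted p was 0.0839, shared by Gzmk and Rxfp1. At an unadjusted p under 0.05, 880 genes (4.51%) were higher and 888 (4.55%) lower in treated tumors, and 871 of each (4.47% and 4.47%) had the same sign on both diets. The main effect pools the 2 within-diet differences, so the agreement in sign of these selected genes is largely built in and is not replication. The within-diet differences were smaller in number on the control diet, with 471 genes higher (2.41%) and 700 lower (3.59%), than on the HMB diet, with 918 higher (4.71%) and 799 lower (4.1%), again with 0 genes at an adjusted p under 0.05. Counts within the gene lists below are to be read against these shares of all genes. No gene separated all 13 treated from all 13 untreated tumors.

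Both diets gave the same sign for 10443 genes (53.5%). The 6 and 6 tumors of the control diet and the 7 and 7 of the HMB diet are different tumors, so this agreement in sign over all genes is not built in. Of the 918 genes higher on the HMB diet at an unadjusted p under 0.05, 668 (72.8%) were also higher on the control diet, whereas of the 471 genes higher on the control diet only 245 (52%) were higher on the HMB diet. Of the genes lower on the control diet 63.1% were lower on the HMB diet, and of those lower on the HMB diet 55.3% were lower on the control diet. Of all 19505 genes, 36 were higher on both diets with each p below 0.05 before adjustment, and 47 were lower. Within a single diet the shares were 2.41% (control) and 4.71% (HMB) for higher genes, and 3.59% and 4.1% for lower genes. Shares of this size let some genes pass on both diets by chance. How many was not computed, so the 36 and 47 genes are not shown to be replicated. Across genes, which are not independent replicates, the differences of the 2 diets had a Pearson r of 0.12.

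**Figure D1:**
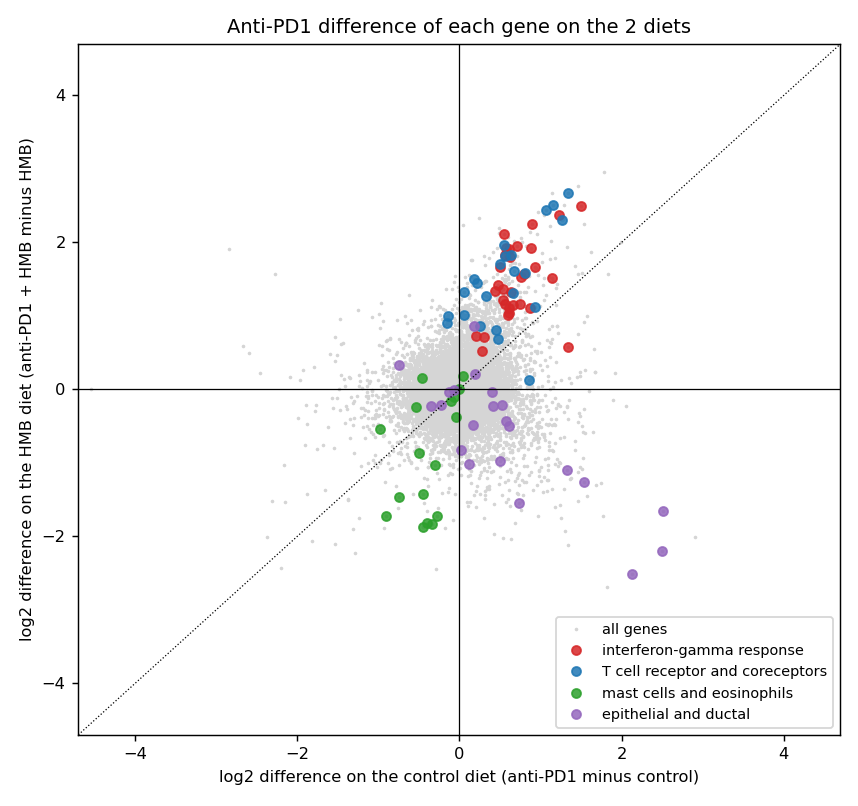
Each point is a gene, with its log2 difference of anti-PD1 minus control tumors on the horizontal axis and of anti-PD1 + HMB minus HMB tumors on the vertical axis; the dotted line marks equal differences. All 31 interferon-gamma genes (red) lie above 0 on both diets and most lie above the dotted line, mast cell and eosinophil genes (green) lie mostly below 0 on both, and epithelial genes (purple) reach opposite signs.

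Among the genes with the same sign on both diets, the 12 higher genes with the smallest p included several of T cells and antigen presentation. Gzmk, which encodes granzyme K, a protease of cytotoxic lymphocytes, had log2 values of 2.98, 5.19 and 6.31 (lowest, median, highest) in control tumors, 5.64, 6.16 and 8.29 in anti-PD1 tumors, 2.87, 3.73 and 5.11 in HMB tumors and 4.62, 6.42 and 7.12 in anti-PD1 + HMB tumors. All 13 treated tumors lay above the mean of the untreated tumors on their own diet, and 7 lay above every untreated tumor. The difference was 3.78-fold (log2 1.92 ± 0.35 SE, n = 13 and 13), with 1.54 on the control diet and 2.25 on the HMB diet. Tap1, a subunit of the transporter that brings peptides to MHC class I, was also higher in all 13 treated tumors than the untreated mean of their diet. Its lowest, median and highest log2 values were 11.59, 12.94 and 13.60 in control tumors and 12.98, 13.51 and 14.20 in anti-PD1 tumors, and 10.44, 12.29 and 13.13 in HMB tumors and 12.49, 13.73 and 14.33 in anti-PD1 + HMB tumors. The groups overlapped on each diet, and the difference was 1.21 ± 0.28 (SE). Ptger2, a receptor for prostaglandin E2, differed by 1.05 ± 0.21, and Psen2, a catalytic subunit of gamma-secretase, by 0.79 ± 0.17, each with all 13 treated tumors above the untreated mean. Cfb, complement factor B, differed by 1.47 ± 0.33, and Ly75, an endocytic receptor of dendritic cells, by 0.93 ± 0.22.

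The other higher genes were Gm4759, Gm12216, 1500004A13Rik, Ubash3b, which encodes a phosphatase that dampens T cell receptor signaling, and the class I genes H2-Q1 and H2-T-ps, the latter a pseudogene. Their differences ran from 0.61 for H2-Q1 to 2.17 for Gm4759. Probe sets of the H2 family can bind near-identical relatives, so a value of H2-Q1 or H2-T-ps may include them. Of the 12 genes, 10 had all 4 group means below the background, with Tap1 and Gm4759 as the exceptions. Adjusted p values of these genes with limma ran from 0.0839 to 0.196.

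The 12 lower genes with the smallest p belonged to no immune group and 0 of them stood in the gene lists used here. Rxfp1, a receptor for relaxin, had lowest, median and highest log2 values of 3.30, 3.55 and 4.33 in control tumors against 2.68, 3.07 and 3.21 in anti-PD1 tumors, which did not overlap. On the HMB diet they were 2.90, 3.54 and 4.08 in untreated and 1.90, 2.71 and 3.00 in treated tumors, which overlapped slightly. All of these are far below the background, and the difference was -0.81 ± 0.15 (SE). Rxfp1 was picked for its small p, and the share of all genes without overlap within a diet was not counted. The 4 genes of this set with a group mean above the background were Rin2, a Rab5 regulator, by -0.82 ± 0.18, Arfgap3, a GTPase-activating protein of the Golgi, by -0.58 ± 0.13, Mfsd11 by -0.38 ± 0.09 and Banp, a nuclear DNA-binding protein, by -0.69 ± 0.16. Arfgap3 had the same difference of -0.58 on each diet. Rin2 had lowest, median and highest log2 values of 12.77, 13.38 and 14.38 in control and 11.71, 12.59 and 12.81 in anti-PD1 tumors, and of 12.83, 13.16 and 13.47 in HMB and 11.65, 12.76 and 13.18 in anti-PD1 + HMB tumors. The remaining lower genes were Hdhd3, Trim32, a ubiquitin ligase, Smyd3, a lysine methyltransferase, Zfp523, Gm17019, Rex1bd and Piezo2, a mechanically gated ion channel, with differences between -1.79 for Gm17019 and -0.41 for Trim32.

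**Figure D2:**
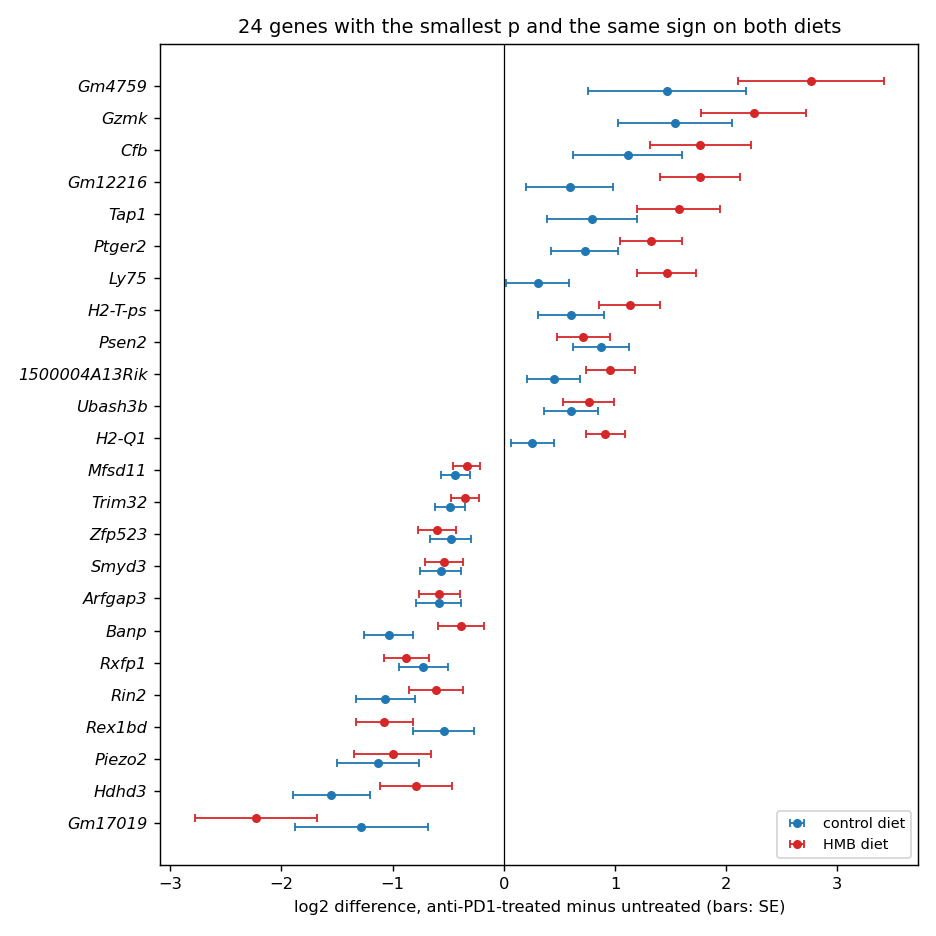
Points are log2 differences of treated minus untreated tumors on the control diet (blue, 6 and 6 tumors) and on the HMB diet (red, 7 and 7 tumors), with bars for the SE, for the 24 genes named by smallest p in each direction. The signs are the same on both diets because the genes were chosen for it; Gzmk stands at 1.54 and 2.25 and Rxfp1 at -0.72 and -0.88.

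The receptor blocked by the antibody was itself higher at the RNA level in treated tumors. Pdcd1 had lowest, median and highest log2 values of 5.24, 6.82 and 7.64 in control tumors, 6.51, 7.71 and 10.13 in anti-PD1 tumors, 4.92, 6.39 and 7.64 in HMB tumors and 6.18, 8.55 and 9.08 in anti-PD1 + HMB tumors. The groups overlapped, 11 of 13 treated tumors lay above the untreated mean of their diet, and the difference was 1.56 ± 0.41 (SE; limma, adjusted p = 0.223), with 1.43 on the control diet and 1.68 on the HMB diet. The ligand genes Cd274 and Pdcd1lg2 differed by 1.26 ± 0.42 and 1.37 ± 0.51. Their differences were 0.62 and 0.49 on the control diet and 1.80 and 2.12 on the HMB diet, and the test of the difference between diets gave unadjusted p values of 0.164 and 0.108 with limma.

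T cell receptor genes and coreceptors were higher as a group. Of 23 measured genes all 23 had a difference above 0, against 47.9% of all genes. At an unadjusted p under 0.05, 16 were higher (69.6%), against 4.51% of all genes. The median was 1.01 against -0.0098 over all genes. On the control diet 0 of the 23 were higher by the same threshold (median 0.55) and on the HMB diet 16 (median 1.45). Cd3e, a signaling chain of the T cell receptor, differed by 1.89 ± 0.48 and Cd3g, another such chain, by 1.83 ± 0.53. Cd8a, a chain of the CD8 coreceptor of cytotoxic T cells, had lowest, median and highest log2 values of 8.19, 10.02 and 10.76 in control tumors, 9.65, 10.98 and 13.08 in anti-PD1 tumors, 6.28, 8.56 and 10.84 in HMB tumors and 8.95, 12.07 and 13.46 in anti-PD1 + HMB tumors, a difference of 2.06 ± 0.51. Its partner Cd8b1 differed by 1.81 ± 0.49. Cd4, the coreceptor of helper T cells and also present on some myeloid cells, differed by 0.41 ± 0.40, with -0.15 on the control diet and 0.90 on the HMB diet. The Cd4 difference was 0.16 without anti-PD1 + HMB tumor 7 and 0.62 without HMB tumor 2. None of the 23 genes had a mean above the background, and leaving out anti-PD1 + HMB tumor 7, which had the highest T cell score, gave a median of 0.72.

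The log2 ratio of Cd8a to Cd4 within a tumor was higher in treated tumors by 1.64, with 1.49 on the control diet and 1.77 on the HMB diet. Its mean was 1.08 ± 1.54 (SD, n = 13) in treated and -0.57 ± 0.91 (SD, n = 13) in untreated tumors. The genes are read by different probe sets, so the sign of these means does not show which RNA was more abundant. An exact two-sided permutation test of the treatment labels within each diet, over all 3171168 splits, gave p = 0.00185. Without the 2 tumors high in B cell genes, in which Cd4 was also highest, the difference was 1.64 with an exact p of 0.00386. The ratio of Cd8b1 to Cd4 differed by 1.40 over all tumors with an exact permutation p of 0.00435, and by 1.302 without those 2 tumors with an exact p of 0.0116. These ratios were chosen after the values of Cd8a and Cd4 had been seen, so that these p values are descriptive.

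**Figure D3:**
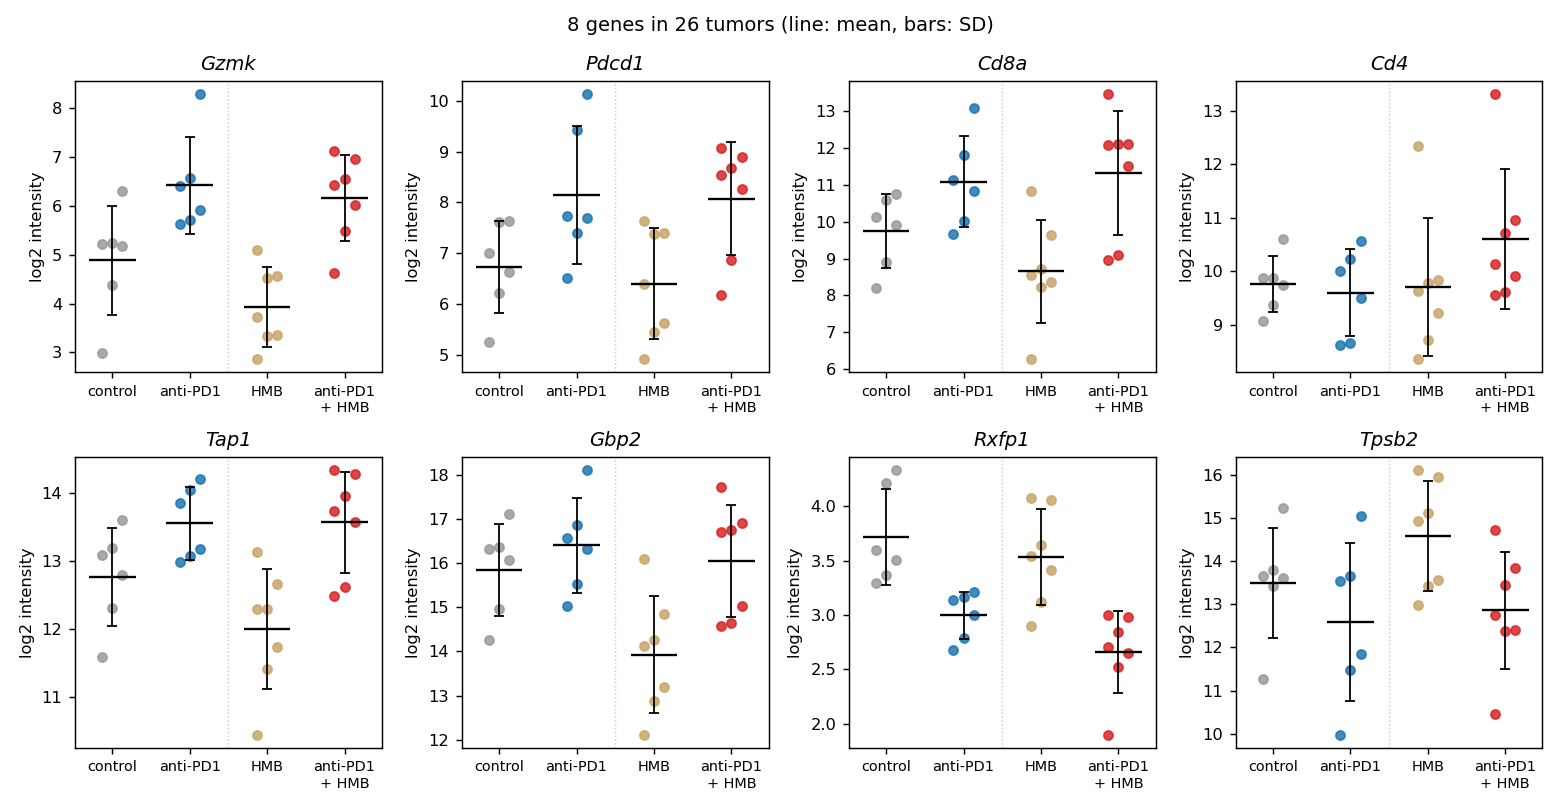
Each point is a tumor, with the log2 intensity on the vertical axis (each panel has its own range), a line for the group mean and bars for the SD, in 6 control, 6 anti-PD1, 7 HMB and 7 anti-PD1 + HMB tumors. Gzmk, Pdcd1, Cd8a, Tap1 and Gbp2 have higher means in treated tumors on both diets, Rxfp1 and Tpsb2 lower ones, and Cd4 differs by -0.15 and 0.90.

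Effector genes of cytotoxic T cells and natural killer (NK) cells followed. Of 26 genes, 22 had a difference above 0, with a median of 0.65. At an unadjusted p under 0.05, 14 were higher (53.8%) and 0 lower, against 4.51% and 4.55% of all genes. On the control diet 2 were higher and 1 lower (median 0.38), and on the HMB diet 15 were higher and 0 lower (median 0.90). Prf1, which encodes the pore-forming protein perforin, differed by 1.55 ± 0.46 and almost equally on both diets, by 1.51 and 1.59. Gzmb, granzyme B, differed by 1.28 ± 0.42, and Ifng, interferon-gamma itself, by 1.40 ± 0.36. Ifng had lowest, median and highest log2 values of 4.91, 6.25 and 7.40 in control, 5.74, 7.02 and 9.23 in anti-PD1, 4.48, 4.84 and 6.00 in HMB and 5.43, 6.47 and 8.15 in anti-PD1 + HMB tumors, with 12 of 13 treated tumors above the untreated mean of their diet. Il2rb, a receptor chain for interleukin-2 and interleukin-15, differed by 1.97 ± 0.49 and Klrd1, the CD94 chain of NK receptors, by 1.51 ± 0.40. Only 2 of the 26 genes had a mean above the background. Without genes dimmer than the background, 1 gene of this list was higher.

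Inhibitory receptors and exhaustion genes came next, with 23 of 24 genes above 0 and a median of 0.65. When p was not adjusted, 10 were higher (41.7%) and 1 lower (4.17%), against 4.51% and 4.55% of all genes. On the control diet 5 of the 24 were higher, and on the HMB diet 11 were higher and 1 lower. Tox, a transcription factor of exhausted T cells, differed by 1.95 ± 0.47, Cd96 by 1.44 ± 0.41, Lag3 by 0.91 ± 0.28 and Tigit by 0.86 ± 0.23. For Tigit all 13 treated tumors lay above the untreated mean of their diet. Lag3 differed by 0.90 on the control diet and 0.91 on the HMB diet, although anti-PD1 tumor 5 stood far above its group at 10.5. Ctla4 and Havcr2, the genes of the inhibitory receptors CTLA-4 and TIM-3, differed mostly on the HMB diet. Ctla4 differed by 0.05 on the control diet and 2.24 on the HMB diet, and Havcr2 by -0.23 and 1.12. The difference between diets had unadjusted p values of 0.00474 for Ctla4 and 0.00454 for Havcr2 with limma, which did not pass adjustment over all genes. Across all genes that test had 0 genes at an adjusted p under 0.05 (0%). At an unadjusted p under 0.05, the anti-PD1 difference was more positive on the HMB diet for 509 genes (2.61%) and more negative for 577 (2.96%). The gene lower in treated tumors was Vtcn1, the ligand B7-H4, by -0.41 ± 0.19. Only 3 of the 24 genes had a mean above the background. Without genes dimmer than the background, 0 genes of this list were higher.

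Genes of regulatory T cells, which restrain other T cells, gave a median of 0.51. At an unadjusted p under 0.05, 8 of 16 were higher (50%) and 0 lower, against 4.51% and 4.55% of all genes. On the control diet 1 of the 16 was higher (median 0.215) and on the HMB diet 9 (median 0.72), and 3 had an unadjusted p under 0.05 for the difference between diets. The 8 genes included Il2ra, the high-affinity interleukin-2 receptor chain, by 0.75 ± 0.21, the costimulatory receptors Tnfrsf18 and Tnfrsf4 by 0.89 ± 0.27 and 0.84 ± 0.26, and the chemokine receptor Ccr8 by 0.87 ± 0.24. Foxp3, the factor that defines these cells, had no named probe set and was not analysed here. Only 1 of the 16 genes had a mean above the background. Without genes dimmer than the background, 0 genes of this list were higher.

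Interferon-gamma-induced genes were the most uniform group. All 31 measured genes had a difference above 0 on each diet, against 49.2% of all genes on the control diet and 48.4% on the HMB diet, and 30 were higher at an unadjusted p under 0.05, with Serping1 as the exception (0.92 ± 0.51), against the 4.51% of all genes given above. Their median difference was 1.01, with 0.62 on the control diet and 1.42 on the HMB diet. Taken singly, 0 of the 31 passed an unadjusted p of 0.05 on the control diet and 27 did on the HMB diet, and the test of the difference between diets was under 0.05 for 0 of them. Batf2, a transcription factor induced by interferon, had the largest difference of the list, 2.03 ± 0.62, and Psme1, a proteasome activator subunit, the smallest, 0.41. Of the 31 genes, 20 had a mean above the background.

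The GTPases of the guanylate-binding and immunity-related families attack the compartments of intracellular pathogens. Gbp2 had lowest, median and highest log2 values of 14.27, 16.20 and 17.12 in control tumors and 15.02, 16.45 and 18.12 in anti-PD1 tumors, and of 12.12, 14.13 and 16.09 in HMB tumors and 14.57, 16.71 and 17.74 in anti-PD1 + HMB tumors. Its difference was 1.40 ± 0.46. Gbp3 differed by 1.45 ± 0.41 and Igtp by 1.62 ± 0.48. Members of both families resemble each other closely, so a probe set may bind a relative. Irf1, a transcription factor that interferon-gamma induces early, differed by 0.97 ± 0.28, with log2 values of 12.50, 14.16 and 14.73 in control, 13.99, 14.55 and 15.39 in anti-PD1, 12.10, 12.92 and 14.06 in HMB and 12.80, 14.58 and 15.23 in anti-PD1 + HMB tumors. The chemokines Cxcl9 and Cxcl10, which attract T cells through the receptor Cxcr3, differed by 1.31 ± 0.43 and 1.34 ± 0.60, and Cxcr3 by 0.58 ± 0.20, with 0.08 on the control diet and 1.01 on the HMB diet (limma, unadjusted p = 0.0168 for the difference between diets).

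The promoters of these genes are shown because interferons act through short DNA elements at start sites, the interferon-stimulated response element and the gamma-activated site. Windows of 300 bases, from 250 before to 50 after the annotated start, were taken from RefSeq on GRCm38.p6 and were found for 21 of the 31 genes. They were searched on both strands for GAAA followed by any 2 bases and GAAA again, a core of the response element called the doubled GAAA motif here, and for TTCNNNGAA, a core of the gamma-activated site, where N is any base and copies of the same motif may overlap. The doubled GAAA motif or its reverse complement stood in a window of 10 of the 21 genes (47.6%), against 3.94% of the 15691 measured genes with a window, and TTCNNNGAA in 6 (28.6%), against 9.02%. The list was written as a list of interferon-gamma-induced genes, so an excess of these motifs is largely built in and is not a result of treatment. Matching letters do not show that a factor bound there. In the windows printed, capitals mark the motif copies and each sequence runs 5′ to 3′ on the strand of its gene.
Gbp2 (chr3:142620413-142620712, plus strand): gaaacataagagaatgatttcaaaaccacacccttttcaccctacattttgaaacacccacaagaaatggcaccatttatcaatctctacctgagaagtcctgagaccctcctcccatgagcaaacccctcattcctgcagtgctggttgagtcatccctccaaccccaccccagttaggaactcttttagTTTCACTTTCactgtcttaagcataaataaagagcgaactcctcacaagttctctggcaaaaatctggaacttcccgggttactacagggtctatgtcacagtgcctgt
Gbp3 (chr3:142559794-142560093, plus strand): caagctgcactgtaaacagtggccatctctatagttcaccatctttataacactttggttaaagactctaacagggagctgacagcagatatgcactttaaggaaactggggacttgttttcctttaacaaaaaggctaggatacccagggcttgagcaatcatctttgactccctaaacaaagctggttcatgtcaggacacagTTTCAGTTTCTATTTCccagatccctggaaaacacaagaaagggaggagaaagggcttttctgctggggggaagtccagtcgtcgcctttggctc
Igtp (chr11:58199306-58199605, plus strand): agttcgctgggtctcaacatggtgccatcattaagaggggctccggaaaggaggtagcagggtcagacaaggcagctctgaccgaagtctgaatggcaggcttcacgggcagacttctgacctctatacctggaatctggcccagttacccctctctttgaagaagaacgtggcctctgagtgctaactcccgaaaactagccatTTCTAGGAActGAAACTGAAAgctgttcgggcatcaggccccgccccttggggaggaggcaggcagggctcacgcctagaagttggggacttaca
Irf1 (chr11:53769764-53770063, plus strand): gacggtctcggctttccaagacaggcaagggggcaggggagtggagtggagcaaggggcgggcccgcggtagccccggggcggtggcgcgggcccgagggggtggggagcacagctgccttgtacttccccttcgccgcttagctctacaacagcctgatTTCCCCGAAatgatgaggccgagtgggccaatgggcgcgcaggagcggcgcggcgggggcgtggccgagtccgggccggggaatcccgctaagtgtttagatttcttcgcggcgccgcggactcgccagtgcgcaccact
Tap1 (chr17:34187306-34187605, plus strand): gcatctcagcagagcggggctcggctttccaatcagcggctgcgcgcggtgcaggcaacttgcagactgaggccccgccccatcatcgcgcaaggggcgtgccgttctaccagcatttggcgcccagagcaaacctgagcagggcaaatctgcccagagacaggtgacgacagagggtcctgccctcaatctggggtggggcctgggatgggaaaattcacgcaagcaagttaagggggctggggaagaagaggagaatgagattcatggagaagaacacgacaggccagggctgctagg

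The copy in Gbp2 begins 59 bases ahead of the start site and reads TTTCACTTTC, on the opposite strand, and Gbp3 holds 2 overlapping copies that begin 45 and 39 bases ahead. Igtp holds both motifs, TTCNNNGAA 45 bases ahead and the doubled GAAA motif 34 bases ahead. Irf1 holds only TTCNNNGAA, 90 bases ahead. Both motifs together were found in 4 of the 21 genes and neither in 9, among them Tap1. The Tap1 window shares 275 bases with that of Psmb9, a subunit of the immunoproteasome transcribed in the opposite direction, and these neighbors differed by 1.21 and 1.24. In the type I interferon list, 12 of 27 genes with a window (44.4%) held the doubled GAAA motif and 5 (18.5%) TTCNNNGAA, and in the T cell receptor list 0 of 13 and 1 of 13.

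Genes best known as targets of type I interferon differed less. Of 36 genes, 34 were above 0, with a median of 0.45. At an unadjusted p under 0.05, 12 were higher (33.3%) and 0 lower, against 4.51% and 4.55% of all genes. The count of higher genes was 7 without HMB tumor 6. Within diets, 1 was higher on the control diet and 12 on the HMB diet. Zbp1, a sensor of nucleic acids, differed by 1.17 ± 0.32, Bst2, which tethers budding viruses, by 0.90 ± 0.25, Stat2, a part of the interferon-stimulated transcription complex, by 0.68 ± 0.23 and Mx1, an antiviral GTPase, by 0.60 ± 0.20.

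Antigen presentation genes load and display peptides for T cells, class I for CD8+ and class II for CD4+ T cells. In the MHC class I list the median was 0.76. At an unadjusted p under 0.05, 15 of 18 genes were higher (83.3%) and 0 lower, against 4.51% and 4.55% of all genes. Of the 18 genes, 6 also stood in the interferon-gamma list (33.3% of the class I list and 19.4% of the interferon-gamma list). Within diets, 0 of the 18 were higher on the control diet (median 0.34) and 15 on the HMB diet (median 1.09). H2-T23, the mouse Qa-1 molecule recognised by NK receptors, differed by 0.99 ± 0.25, with all 13 treated tumors above the untreated mean of their diet, H2-Q4 by 1.23 ± 0.31 and H2-T22 by 0.77 ± 0.19. B2m, the light chain of class I molecules and near the top of the intensity range, differed by 0.22 ± 0.09, with 0.02 on the control diet and 0.39 on the HMB diet. In the MHC class II list all 11 genes were above 0 and 8 were higher at an unadjusted p under 0.05 (72.7%), with a median of 0.82. Of the 11 genes, 0 were higher on the control diet (median 0.29) and 9 on the HMB diet (median 1.20). With the mean centred log2 value of the T cell list as a further covariate the class II median was 0.29, with 1 gene higher and 2 lower. H2-DMa and H2-DMb2, which load peptides onto class II molecules, differed by 1.39 ± 0.39 and 1.84 ± 0.53, and the class II chains H2-Aa and H2-Eb1 by 0.82 ± 0.28 and 0.82 ± 0.24. H2-Aa had lowest, median and highest log2 values of 16.26, 17.07 and 17.61 in control and 16.80, 17.07 and 18.16 in anti-PD1 tumors, which have the same median, and of 14.32, 16.11 and 17.62 in HMB and 16.35, 17.63 and 17.96 in anti-PD1 + HMB tumors.

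The untreated groups of the 2 diets stood at different levels, a difference that was not tested here. The mean log2 value of the 31 interferon-gamma genes, centred on each gene's mean over all tumors and called the list score, had lowest, median and highest values of -1.29, 0.27 and 0.90 in control, -0.09, 0.51 and 1.87 in anti-PD1, -2.01, -1.21 and 0.32 in HMB and -0.81, 0.86 and 1.70 in anti-PD1 + HMB tumors. The treated groups were close to each other, with means of 0.67 ± 0.75 (SD, n = 6) and 0.46 ± 1.02 (SD, n = 7), while the untreated groups had means of -0.03 ± 0.80 (SD, n = 6) and -1.01 ± 0.74 (SD, n = 7). The T cell score had medians of -0.24 in control, 0.045 in anti-PD1, -0.88 in HMB and 0.56 in anti-PD1 + HMB tumors. The part of T cell RNA in the interferon result was not tested beyond a single model. With the T cell score as a further covariate the median difference of the interferon-gamma list was 0.65 and 7 of its 31 genes were higher at an unadjusted p under 0.05. Without the 5 tumors high in muscle or B cell genes the median was 1.10, with 30 genes higher.

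**Figure D4:**
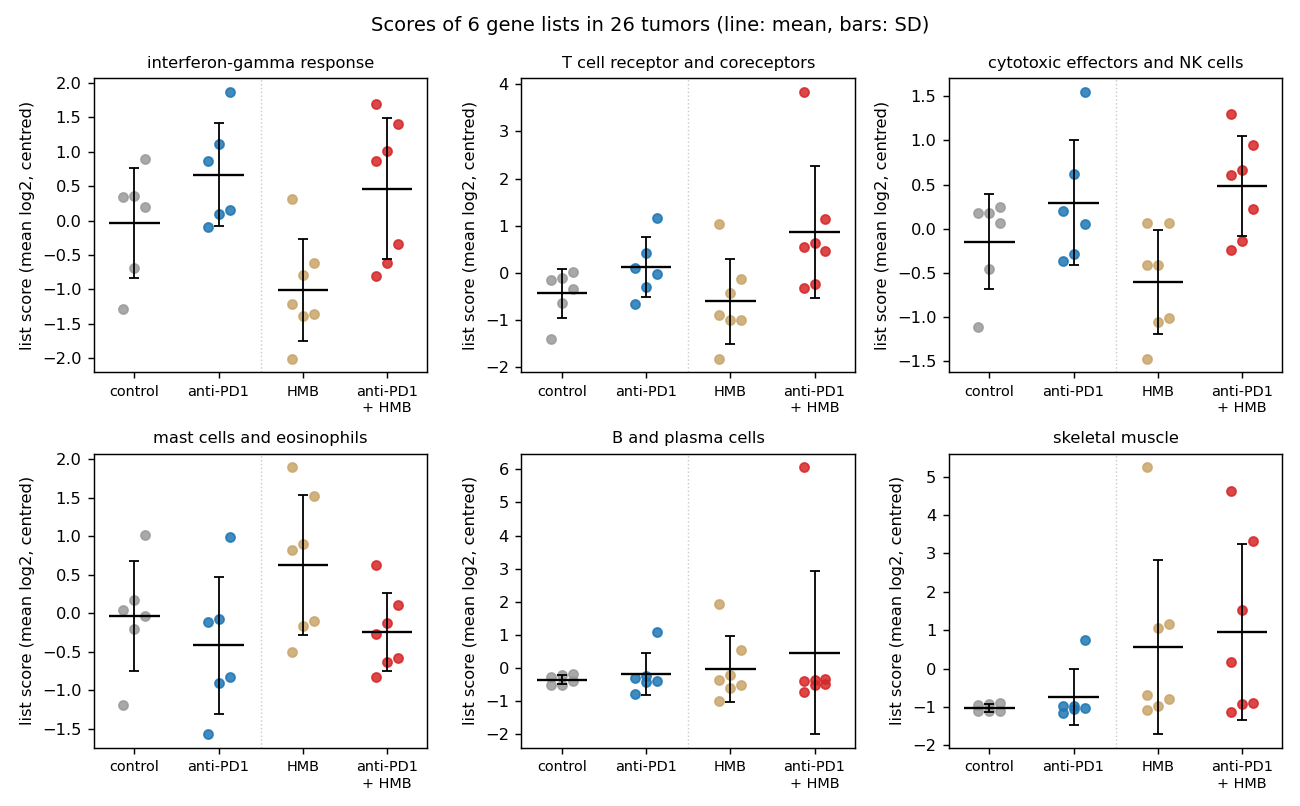
Each point is the score of a gene list in a tumor, that is the mean centred log2 value of its genes, with a line for the group mean and bars for the SD in 6 control, 6 anti-PD1, 7 HMB and 7 anti-PD1 + HMB tumors. Interferon-gamma scores have medians of -1.21 in HMB and 0.86 in anti-PD1 + HMB tumors, the B and plasma cell score reaches 6.05 in a single anti-PD1 + HMB tumor, and muscle scores exceed 3 in 3 HMB-fed tumors.

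Myeloid genes differed by set. Of 19 genes associated with M1-like macrophages 9 were higher at an unadjusted p under 0.05 and 0 lower, with a median of 0.57, with medians of 0.575 and 0.608 on the control and HMB diets and 1 and 7 genes higher. They included Slamf7, by 1.40 ± 0.40, and the chemokines Ccl5 and Ccl3, by 1.76 ± 0.48 and 1.76 ± 0.59, which T cells and NK cells also make. Of 22 genes associated with M2-like macrophages 2 were higher (9.09%) and 1 lower (4.55%), against 4.51% and 4.55% of all genes. Their median was 0.02 and lay between -0.11 (without anti-PD1 tumor 1) and 0.14 (without anti-PD1 + HMB tumor 2). Arg1, Mrc1 and Nos2, used as markers of these states, differed by -0.04 ± 0.40, -0.22 ± 0.25 and 0.05 ± 0.22. Of 25 general macrophage and monocyte genes 6 were higher, 0 on the control diet and 4 on the HMB diet. Among the 6 were Fcgr4, an activating antibody receptor, by 1.33 ± 0.48, and Ly6c2 of inflammatory monocytes by 1.10 ± 0.39. The median was 0.24, and 0.14 without HMB tumor 5. Of 22 dendritic cell genes 10 were higher, 3 on the control diet and 10 on the HMB diet, with a median of 0.52, among them Xcr1 of cross-presenting dendritic cells by 1.33 ± 0.50 and Batf3, a transcription factor of the same cells, by 0.55 ± 0.21. Of 22 B and plasma cell genes 0 passed an unadjusted p of 0.05 in either direction. Their median was 0.36 over all tumors, -0.10 without anti-PD1 + HMB tumor 7, 0.525 without HMB tumor 2 and 0.0535 without both.

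Genes of granulocytes gave lower medians, with few members past an unadjusted p of 0.05. Of 17 mast cell and eosinophil genes 16 had a difference below 0 and 5 were lower at an unadjusted p under 0.05, against 4.55% of all genes, with a median of -0.69, -0.40 on the control diet and -0.86 on the HMB diet. By the same threshold 0 of the 17 were lower on the control diet and 6 on the HMB diet. Tpsb2, a mast cell tryptase with means above the background, had lowest, median and highest log2 values of 11.26, 13.64 and 15.23 in control, 9.98, 12.69 and 15.06 in anti-PD1, 12.98, 14.93 and 16.12 in HMB and 10.45, 12.76 and 14.73 in anti-PD1 + HMB tumors. The groups overlapped, and the difference was -1.35 ± 0.52, with 9 of 13 treated tumors below the untreated mean of their diet. The tryptase Tpsab1 differed by -1.22 ± 0.45, the mast cell factor Gata2 by -0.69 ± 0.29 and Ms4a2, a chain of the IgE receptor, by -0.97 ± 0.45. The count of 5 ran from 3 to 9 when single tumors were left out, with 9 without anti-PD1 tumor 6, 8 without HMB tumor 5 or control tumor 6, and 3 without control tumor 2 or 3, anti-PD1 tumor 1 or 3, HMB tumor 1, 2 or 3, or anti-PD1 + HMB tumor 5 or 7, and it was 1 without the 2 tumors high in B cell genes. Of 24 neutrophil genes 4 were lower (16.7%) and 0 higher, and 13 had the same sign on both diets. On the control diet 2 were lower (median -0.30), and on the HMB diet 1 was lower (median -0.08), with 11 genes above 0 and 13 below. The 4 genes were S100a9 and S100a8, the subunits of calprotectin, by -0.96 ± 0.27 and -0.74 ± 0.33, the granule enzyme Mpo by -0.31 ± 0.11 and the neutrophil-attracting chemokine Cxcl5 by -0.90 ± 0.37. The neutrophil median was -0.17, -0.08 without control tumor 4, -0.10 without HMB tumor 2 and -0.25 without HMB tumor 4.

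**Figure D5:**
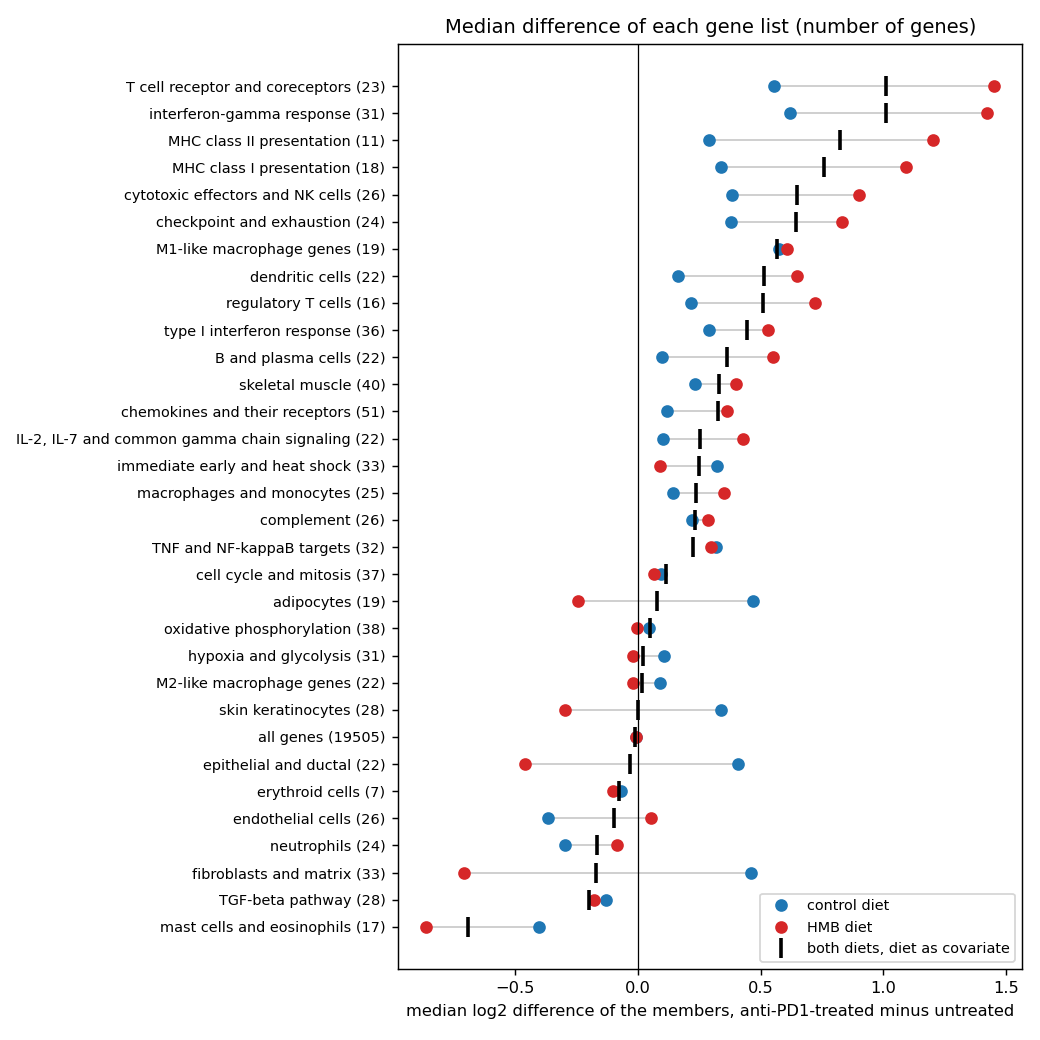
Points are the median log2 difference of treated minus untreated tumors over the genes of each list on the control diet (blue) and the HMB diet (red), and ticks the median with diet as covariate; numbers in parentheses are the genes measured. The T cell and interferon-gamma lists have medians of 1.01, mast cells and eosinophils -0.69 and all genes -0.0098, and the fibroblast, epithelial, keratinocyte and adipocyte lists are among those with opposite signs on the 2 diets.

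Signaling and stromal lists are given last. Of 51 chemokines and receptors 13 were higher (25.5%) and 1 lower (1.96%) by the same threshold (3 lower without anti-PD1 + HMB tumor 6). Cxcl14 differed by 1.19 ± 0.34 and Cxcr6, a receptor of tissue T cells, by 1.26 ± 0.36. The median of 0.33 was 0.12 without anti-PD1 + HMB tumor 7 and 0.22 without anti-PD1 tumor 4. Chemokine and receptor genes higher within a diet numbered 1 on the control diet and 10 on the HMB diet. Of 32 targets of tumor necrosis factor (TNF) and NF-kappaB 9 were higher (28.1%) and 0 lower, with 5 higher without HMB tumor 3. Among the 9 were the feedback inhibitor Tnfaip3 by 0.84 ± 0.23, the adhesion molecule Icam1 by 0.75 ± 0.27 and Tnf itself by 1.06 ± 0.43. Within a diet, 3 of the 32 were higher on the control diet and 7 on the HMB diet. Of 26 complement genes 5 were higher (19.2%), including C4b by 1.20 ± 0.41. The count was 8 without anti-PD1 tumor 3 and 3 without HMB tumor 5 or anti-PD1 tumor 5. Complement genes higher within a diet numbered 2 on the control diet and 5 on the HMB diet. Among 28 genes of the TGF-beta pathway 4 were lower and 1 higher on the control diet, and 3 lower and 3 higher on the HMB diet. Over all tumors 6 were lower (21.4%) and 2 higher (7.14%, near the share of all genes), with 4 higher without control tumor 5. The lower genes included the target gene Id1 by -0.72 ± 0.22, the latency protein Ltbp3 by -0.47 ± 0.18, the ligand Tgfb3 by -0.98 ± 0.38, the receptor Tgfbr2 by -0.32 ± 0.15 and the transducer Smad3 by -0.34 ± 0.15, and the higher genes were Tgfbi by 0.49 ± 0.17 and the ligand Tgfb1 by 0.24 ± 0.09. Of 26 endothelial genes 3 were lower (11.5%), the nitric oxide synthase Nos3 by -0.50 ± 0.17, Emcn by -0.52 ± 0.18 and the apelin receptor Aplnr by -0.81 ± 0.35. The 2 diets differed, with 23 of the 26 below 0 on the control diet (median -0.365) and 12 on the HMB diet (median 0.056). Only 11 had the same sign on both diets. The endothelial median over all tumors of -0.10 was -0.23 without anti-PD1 + HMB tumor 7, -0.04 without anti-PD1 + HMB tumor 2 and -0.0049 without control tumor 4.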

How the data were processed

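RNA of 26 whole tumors was hybridised to Clariom S arrays, 1 array per tumor. The values are log2 values per probe set as deposited by the authors in a single table. Their normalization and log base were not given in the sources used here. Base 2 was taken from the range of values. Of 28846 probe sets, 19572 carried a symbol and gave 19505 genes. For the 55 genes with several probe sets, the brightest was used. Precision is limited by how many arrays there are.

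Groups came from the titles. Each gene was fitted with limma 3.58.1 in R 4.3.3 on treatment and diet, and the within-diet differences and their difference were fitted on 4 group means. P values were adjusted by Benjamini-Hochberg over all genes. They come from a moderated t, which sets a difference between group means against the spread between tumors. Cage, batch and array date were not analysed here. Errors of differences are SEs of the fit. Background was the 95th percentile of the negative-control probe sets, with the median over arrays. A list score is the mean of its genes after subtracting each gene's mean over all tumors.

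Named genes were the 12 with the smallest p in each direction and the same sign on both diets, the 4 with the smallest p in each list, genes of the PD-1 pathway and its known effects, and the 5 with the smallest p for the difference between diets. Other list members given were chosen after their values were seen. The members, lists and tests were chosen with earlier results of these data known. The fit was tested on simulated data. Alternatives were quantile normalization, filters on dim genes, other variance models, array weights, the methods' t-test, other diet terms, a replicate block, tissue scores as covariates and leaving out tumors.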

Additional observations from a re-analysis of the deposited data

Results flagged for a closer look

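Among 115 named genes and 31 list scores, 584 groups of 6 or 7 tumors were examined for a single tumor far from the others of its group, and 38 were found, 26 for genes and 12 for list scores. Chance gives about 1 in 20 groups. Anti-PD1 + HMB tumor 7 accounted for 12 of them, control tumor 3 for 10 and control tumor 4 for 4.

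Anti-PD1 + HMB tumor 7 was far the highest of its group with log2 values of 12.4 for Cfb, 13.3 for Cd4, 8.85 for Cxcr3, 11 for Tnfrsf4, 7.95 for S100a9 and 11.1 for Cd83. Anti-PD1 + HMB tumor 7 had the highest score of its group by a wide gap, 3.84 for T cell receptor and coreceptors, 6.05 for B and plasma cells and 1.48 for endothelial cells. Anti-PD1 + HMB tumor 7 was far the lowest of its group with log2 values of 3.94 for Hdhd3 and 8.76 for Rex1bd. Anti-PD1 + HMB tumor 7 had the lowest score of its group by a wide gap, -1.54 for cell cycle and mitosis. Control tumor 3 was far the highest of its group with a log2 value of 6.42 for Slc4a3. Control tumor 3 was far the lowest of its group with log2 values of 6.92 for Cfb, 9.27 for H2-T-ps, 4.82 for Tigit, 7.52 for Cd3e, 13.4 for Cxcl9, 5.6 for Klrd1, 5.05 for Cxcr6 and 14.1 for Tgfbi. Control tumor 3 had the lowest score of its group by a wide gap, -0.771 for complement. Control tumor 4 was far the highest of its group with a log2 value of 8.68 for Erg. Control tumor 4 had the highest score of its group by a wide gap, 0.233 for immediate early and heat shock and 0.897 for endothelial cells. Control tumor 4 had the lowest score of its group by a wide gap, -2.53 for fibroblasts and matrix. Anti-PD1 tumor 5 was far the highest of its group with log2 values of 8.29 for Gzmk and 10.5 for Lag3. Anti-PD1 tumor 1 was far the lowest of its group with log2 values of 4.65 for Hdhd3 and 9.2 for Cxcl5. Anti-PD1 tumor 6 had the highest score of its group by a wide gap, 0.736 for skeletal muscle and 1.51 for skin keratinocytes. HMB tumor 2 was far the highest of its group with a log2 value of 12.3 for Cd4. HMB tumor 7 was far the highest of its group with a log2 value of 6.12 for Il10. HMB tumor 4 was far the highest of its group with a log2 value of 10.5 for Aplnr. Anti-PD1 tumor 2 was far the lowest of its group with a log2 value of 8.54 for Id1. Anti-PD1 tumor 4 had the highest score of its group by a wide gap, 1.08 for B and plasma cells. HMB tumor 5 had the highest score of its group by a wide gap, 5.24 for skeletal muscle.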

How the results depend on the processing

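No gene passed an adjusted p of 0.05 for the main effect under any of 15 other settings (leaving out single tumors aside), where the smallest adjusted p ran from 0.0823 to 0.387, and the methods' t-test gave 0 such genes with 4.38% of genes higher and 4.59% lower before adjustment. Leaving out single tumors gave 0 to 1 genes for the main effect and 0 to 4 on the HMB diet. The single genes were Syt7 without HMB tumor 2, Slc40a1 without anti-PD1 + HMB tumor 3 and Gzmk without control tumor 5 (adjusted p = 0.0383 with limma), and the 4 arose without anti-PD1 + HMB tumor 1. Without genes dimmer than the background, 246 genes were higher and 294 lower before adjustment, from 4168 genes tested. The replicate numbers did not pair tumors (mean correlation of deviations 0.0097 for 37 same-numbered pairs), and with them as a replicate block 0 genes passed, with 4.73% higher and 4.96% lower. Cd4 turned to -0.42 with the T cell score as covariate. Arg1 turned to 0.13 with array weights, 0.12 with tissue scores as covariates, 0.20 without the 3 tumors high in muscle genes, 0.090 without the 2 high in B cell genes, 0.39 without all 5 and 0.58 with the T cell score, and lay between -0.20 and 0.15 without single tumors. Nos2 turned to -0.022 without the 2 tumors high in B cell genes and -0.26 with the T cell score, and lay between -0.051 and 0.14 without single tumors. The cause was not tested. The setting without all 5 tumors and that with the T cell score were chosen after seeing the data. With the T cell score, the MHC class I list had 6 genes higher, the class II list 1 higher and 2 lower, and the T cell list 2 higher and 3 lower. The T cell score is the mean of the T cell list, so the result of that list under this setting was fixed near 0 (median 0.06) and tests nothing. Intensities under the background limit what can be said of dim genes.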

Other observations

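Genes of epithelial cells went opposite ways on the 2 diets. Of 22 epithelial and ductal genes only 6 had the same sign on both, and the median was 0.41 on the control diet and -0.46 on the HMB diet. For the difference between diets 9 had an unadjusted p under 0.05. All 9 had a more negative anti-PD1 difference on the HMB diet, against 2.96% of all genes. Esrp1, a splicing regulator of epithelial cells, differed by 2.50 on the control diet and -2.20 on the HMB diet, and the keratin Krt19 by 2.13 and -2.51. The keratin Krt7 differed by 2.51 and -1.66 and the adhesion gene Epcam by 1.53 and -1.26. Only 4 of the 22 epithelial and ductal genes had a mean above the background. Skin keratinocyte genes had medians of 0.34 and -0.30, and 5 of 28 were lower in the difference, while their levels in anti-PD1 tumor 6 stood apart with a score of 1.51. None of these genes had an adjusted p under 0.05 for the difference between diets, for which the smallest over all genes was 0.316 with limma.

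The genes with the smallest p for the difference between diets were dim. Fancd2os differed by -0.67 on the control diet and 0.60 on the HMB diet, Cblc by 1.21 and -0.95, Tas2r138 by -0.70 and 0.47, Slc4a3 by 0.34 and -1.21 and Kcnmb2 by -2.84 and 1.92.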
